A study of Drosophila melanogaster with 16 samples.

Results

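The data described here are the measurements, in heads of female flies, of 9 genes best known from the female germline and from the setting of the dorsoventral axis of the egg: dhd, piwi, aub, grk, orb, enc, egh, Cf2 and BigH1. The members were taken by name, as the spots that the annotation of the array gives to these genes. They are 9 of the 6793 genes named on the array and of its 13059 features, a feature being a named gene or a pair of neighbouring spots without a name. On the 7th day of feeding on pentylenetetrazole (PTZ), a drug that provokes convulsions, the 2 lowest mean ratios among the 9 genes were those of dhd at -1.98 log2 units (SD 1.52, n = 3 arrays) and BigH1 at -0.78 (SD 0.90, n = 3). On the 14th day, after the drug was withdrawn, dhd was at 1.22 (SD 1.20, n = 3). No member passed the test at any time point, and single arrays of 1 time point differed widely for several of them.

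All flies were virgin females of the wild type strain Oregon-R, 3 to 4 days old at the start and kept at 30 to a vial. Treated flies ate normal food (NF) with PTZ at 8 mg/ml for 12 hrs, up to the 2nd day or up to the 7th day, and a withdrawal group ate PTZ for 7 days and then NF for 7 days, up to the 14th day. Controls ate NF alone for the same time. RNA from pooled heads of a treated and a control set was labelled with different dyes and hybridised to 1 cDNA array, with 4 arrays a time point described in the labels as biological replicates, so that each value is a log2 ratio of PTZ over NF.

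Germ cells make the egg together with the somatic follicle cells around it, and much of what the early embryo needs is stored in the egg as maternal RNA and protein. The piRNA pathway uses Argonaute proteins loaded with small RNAs to silence transposons in the gonad. The dorsal side of the egg is set when the oocyte secretes Gurken, a ligand that activates the epidermal growth factor receptor on the follicle cells nearby. A fly head holds no ovary, so the genes are described here only as RNAs measured in head extracts.

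The dyes were balanced within a time point: PTZ was in Cy5 on the arrays of replicates 1 and 2, and in Cy3 on those of replicates 3 and 4, whose sign was turned. The deposited values had medians from -0.22 to -0.05 log2 units on the arrays of 12 hrs and the 2nd day, from 0.72 to 1.38 on those of the 7th day and from -0.01 to 1.57 on those of the 14th day, so each array was centred on its own median. For 1 array, replicate 4 of the 7th day, the labels disagree, because the title names that day but the treatment described is that of the withdrawal group. The title was followed. Values without this array are also given for dhd, piwi, BigH1, egh and orb on the 7th day, and for the differences of dhd and orb between the 14th and 7th day. The other 7th day means, counts and lists include it. After turning, arrays of opposite dye correlated negatively over all features, with Spearman's rho from -0.44 to -0.32 at 12 hrs and from -0.39 to -0.08 for the 2nd day, while arrays of the same dye correlated positively (0.37 to 0.58 and 0.32 to 0.43). On the 7th day rho ran from -0.08 to 0.43 for the same dye and from -0.08 to 0.34 for opposite dyes. Replicate 4 of the 7th day correlated at most weakly with the other arrays of its group, with rho from -0.08 to -0.01. Weak agreement was not particular to that array. On the 14th day rho was from -0.06 to -0.04 for the same dye and from -0.37 to 0.35 for opposite dyes. Markers of the head were measured: the photoreceptor genes inaC and inaD and Gad1, the enzyme that makes the transmitter GABA, had a value on 16 of 16 arrays. The 9 eye markers on the array had a value on a median of 14 arrays, and 1 of them, Arr2, on 1 array. The 13 other germline and ovary markers on the array had a value on a median of 6 arrays. Of these, otu had no value on any array and osk, bam and tud had one on 1 array each. The number was 4 for plu, 5 for exu, 6 for swa, 7 for CycB, 9 each for yl, mael and fs(1)N and 13 for png. A value on all 16 was held by stau, which also acts in neurons. None of the 12 eggshell and follicle cell markers was among the genes named on the array. The deposited ratios give no level of a gene, so the 9 genes cannot be ranked by abundance. In RNA from whole heads, fewer cells of a type and less RNA per cell cannot be told apart.

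The number of arrays with a value differed among the 9 genes. Spots that were weak, saturated or uneven have no value in the deposited table, so a missing value does not show that a gene was off. Cf2 had a value on all 16 arrays, piwi on 15 and grk on 14. For aub and enc the number was 11, for egh 10, for dhd 7, for orb 6 and for BigH1 5, against a median of 8 over all named genes. The gaps were not spread evenly over time: on the 2nd day dhd, orb, egh and BigH1 had no value on any array, as had 2888 of the 6793 named genes. A value on at least 3 arrays of a time point, which the test required, was reached at 12 hrs by 4 of the 9 genes, a number that stayed at 4 on the 2nd day and then was 9 on the 7th and 8 on the 14th.

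**Figure D1:**
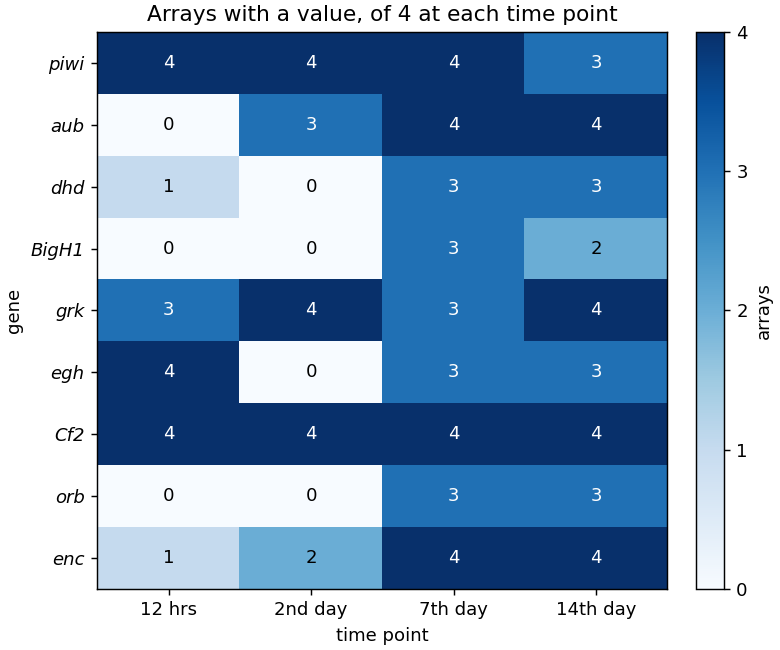
Each cell gives, for 1 gene (rows) and 1 time point (columns), how many of the 4 arrays hold a value. Only Cf2 has 4 at every time point, and dhd, orb and BigH1 have at most 1 before the 7th day.

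The first genes are the 2 Argonautes of the piRNA pathway. Piwi acts in the nucleus, where it silences transposons in the germline and in ovarian somatic cells, and Aubergine, the product of aub, cuts transposon RNA in the cytoplasm of germ cells. In the annotation of the Release 6 assembly piwi (CG6122) and aub (CG6137) lie on either side of CG12253. The annotation also has piwi overlapping SCAR and aub overlapping TTLL4A, and the sources used here do not say whether the spotted cDNA covers bases of both genes.

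The 7th day was the 1 time point at which piwi had a single sign, at -0.39 and -0.50 in replicates 1 and 2 and at -0.24 and -0.005 in replicates 3 and 4. All 4 arrays were thus below 0, with replicate 4 next to it. Their mean was -0.28 (SD 0.21, limma adjusted p = 0.589), and -0.37 without replicate 4 (SD 0.13, n = 3). The single sign depended on the centring: as deposited the 4 arrays were at 0.34, 0.88, -1.08 and -0.76, a split by dye. At the other time points the arrays fell on both sides of 0. At 12 hrs piwi was at 0.005, -0.20, -0.07 and -0.23, with a mean of -0.12 (SD 0.11). On the 2nd day it was at -0.16 and -0.48 with PTZ in Cy5 and at 0.37 and 0.27 with PTZ in Cy3, a split by dye that left a mean of -0.0001 (SD 0.39). After withdrawal 3 arrays gave -0.17, -0.30 and 0.06, with a mean of -0.14 (SD 0.18).

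The array carries 4 spots of piwi in 2 side-by-side pairs. The first pair had a value on 4 arrays and the second on 15, and they disagreed where both were measured. In replicate 4 of 12 hrs the first pair was at -1.0 and the second at 0.54, and in replicate 3 of the 14th day they were at -0.96 and 0.36. With the second pair alone the mean of 12 hrs became 0.12 (SD 0.31, above 0 on 3 of 4 arrays) and that of the 14th day 0.01 (SD 0.37), while the 7th day, where only the second pair was measured, was not affected. A direction for piwi at 12 hrs therefore depended on which spots were read.

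No value of aub was available at 12 hrs. Its 3 arrays of the 2nd day were close to 0, at -0.02, 0.11 and -0.03. By the 7th day aub was at 0.44 and 0.40 with PTZ in Cy5 and at -0.04 and -0.20 with PTZ in Cy3. The sign again followed the dye, and the mean of 0.15 (SD 0.32, limma adjusted p = 0.76) lay within the spread of the arrays. The widest range came on the 14th day, with 0.34, -0.15, -1.03 and 0.20, where replicate 3 alone was far below 0 and ranked 163 from the lowest of the 8872 features on its array. The mean there was -0.16 (SD 0.62, limma adjusted p = 1.0).

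The next genes act in the egg's chromatin and redox state. Deadhead, the product of dhd, is a thioredoxin of the female germline that acts in the egg when sperm chromatin is unpacked after fertilisation. BigH1 is the linker histone of germ cells and the early embryo, which is later replaced by the somatic H1.

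The values of dhd (CG4193) on the 7th day were -3.06 in replicate 1, -2.62 in replicate 3 and -0.25 in replicate 4. Replicate 2 had no value. The gene had the lowest ratio of all 8270 features in replicate 1 and ranked 2 from the lowest of 5827 in replicate 3, which carried the dyes the other way round. In replicate 4 it ranked 1218 from the lowest of 8491. The mean was the lowest of all 7289 features tested on the 7th day, with a 95% interval from -3.12 to -0.84 (limma adjusted p = 0.589). Without replicate 4, the array whose labels disagree, the mean was -2.84 (SD 0.31, n = 2 arrays, limma adjusted p = 0.3).

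By the 14th day dhd was above 0 on each of its 3 arrays, at 2.49, 0.11 and 1.05 in replicates 1, 2 and 3. It ranked 2 from the highest of 10402 features in replicate 1 and 27 from the highest of 8872 in replicate 3, but only 1794 of 4978 in replicate 2. Its mean of 1.22 was the highest among the 3561 named genes tested there (95% interval from 0.34 to 2.09, limma adjusted p = 1.0). Without replicate 1 the mean was 0.58, and with the values as deposited it was 2.05. Before the 7th day the gene had a single value, -0.06 in replicate 1 of 12 hrs. Both spots of dhd were measured on all 7 arrays and differed by a median of 0.16 log2 units and by at most 0.32, far less than the arrays differed from each other.

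BigH1 (CG3509) was measured on the same 3 arrays of the 7th day, at -1.63, -0.89 and 0.16. It ranked 21 from the lowest in replicate 1 and 24 from the lowest in replicate 3, and lay above 0 in replicate 4. The mean had a 95% interval from -1.51 to -0.06 (limma adjusted p = 0.589), and was -1.26 without replicate 4 (SD 0.52, n = 2, limma adjusted p = 0.3). Without replicate 1, the lowest array, it was -0.36 (limma adjusted p = 0.999). Only 2 arrays of the 14th day had a value, at 0.18 and -0.24, which is too few for the test. The 2 arrays on which dhd was lowest were also the 2 on which BigH1 was lowest.

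In the signalling group, grk encodes Gurken, the ligand itself, egh encodes a glycosyltransferase that builds glycosphingolipids and is needed for a normal follicle epithelium, and Cf2 encodes a zinc finger protein that limits gene expression in follicle cells downstream of the receptor. In the annotation grk overlaps Akap200, with the same uncertainty about the spotted cDNA.

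With PTZ in Cy5, grk (CG17610) lay below 0 on 6 of 7 arrays (mean -0.30, SD 0.30). With PTZ in Cy3 it lay above 0 on 5 of 7 (mean 0.16, SD 0.30). The 2nd day came closest to a shared sign, with -0.30, -0.35, 0.04 and -0.20 and a mean of -0.20 (SD 0.17, limma adjusted p = 1.0). At 12 hrs grk was at -0.20, -0.25 and 0.41, which averaged to -0.02 (SD 0.37). Among the 7th day arrays replicate 1 stood at -0.90 while replicates 3 and 4 were at 0.23 and -0.12, giving a mean of -0.27 (SD 0.58), and without replicate 1 the mean was 0.05. The direction on the 7th day thus came from 1 array. After withdrawal grk was at 0.012, -0.08, 0.64 and 0.12, with a mean of 0.17 (SD 0.32).

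Like piwi, egh (CG9659) was below 0 on each 7th day array that measured it, at -0.41, -0.43 and -0.14. Its mean there was -0.32 (SD 0.16, n = 3, limma adjusted p = 0.589), and -0.42 without replicate 4 (n = 2). At 12 hrs its sign followed the dye, at -0.08 and -0.18 with PTZ in Cy5 and at 0.27 and 0.39 with PTZ in Cy3 (mean 0.10, SD 0.27). The 14th day showed the same split on fewer arrays, at -0.12, -0.24 and 0.32 (mean -0.01, SD 0.30). Over all time points egh was below 0 on 6 of 6 arrays with PTZ in Cy5 and on 1 of 4 with PTZ in Cy3, and that one was the 7th day array whose labels disagree. The negative mean of the 7th day was also lost without centring: as deposited it was 0.13.

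Cf2 (CG11924) was the 1 member measured on every array. At 12 hrs it was at -0.29 and -0.48 with PTZ in Cy5 and at 0.28 and 0.56 with PTZ in Cy3, so that the mean of 0.02 (SD 0.49) hid 2 opposite pairs. The 2nd day arrays were at 0.08, -0.40, 0.14 and 0.07, with replicate 2 apart from the other 3, and their mean was -0.03 (SD 0.25). By the 7th day it was at -0.34, -0.50, -0.034 and 0.008 (mean -0.22, SD 0.24, limma adjusted p = 0.651). The 14th day gave -0.03, 0.18, 0.40 and -0.24 (mean 0.08, SD 0.27), again with both signs.

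The last 2 members act on maternal RNA. Orb is the CPEB-type protein that turns on the translation of localised messages such as oskar and gurken in the oocyte, and Encore, the product of enc, limits germ cell divisions and is needed for the localisation of gurken RNA. Relatives of Orb also act in neurons.

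Values of orb (CG10868) existed only for the late time points. In the 7th day group orb was at 0.19, 0.31 and 0.04 in replicates 1, 2 and 4, all above 0, with a mean of 0.18 (SD 0.14, limma adjusted p = 0.705). Without replicate 4 the mean was 0.25 (n = 2). As deposited the 3 arrays were at 0.91, 1.69 and -0.71, on both sides of 0. In the 14th day group it was at -0.24, -0.52 and -0.31 in replicates 1, 2 and 3, all below 0, with a mean of -0.36 (SD 0.14, limma adjusted p = 1.0). The sign on the 14th day depended on the centring, since the mean as deposited was 0.48.

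On the 7th day enc (CG10847) was at 0.45 and 0.53 with PTZ in Cy5 and at -0.22 and 0.09 with PTZ in Cy3 (mean 0.21, SD 0.34, limma adjusted p = 0.678). After withdrawal it was at 0.40, 0.18, -0.24 and -0.24 (mean 0.02, SD 0.32). With PTZ in Cy5 enc was above 0 on 6 of 6 arrays. The highest of these, 1.41 in replicate 2 of the 2nd day, was the mean of duplicate spots at -0.03 and 2.85. The annotation has enc overlapping Rdh, which is not named on the array.

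**Figure D2:**
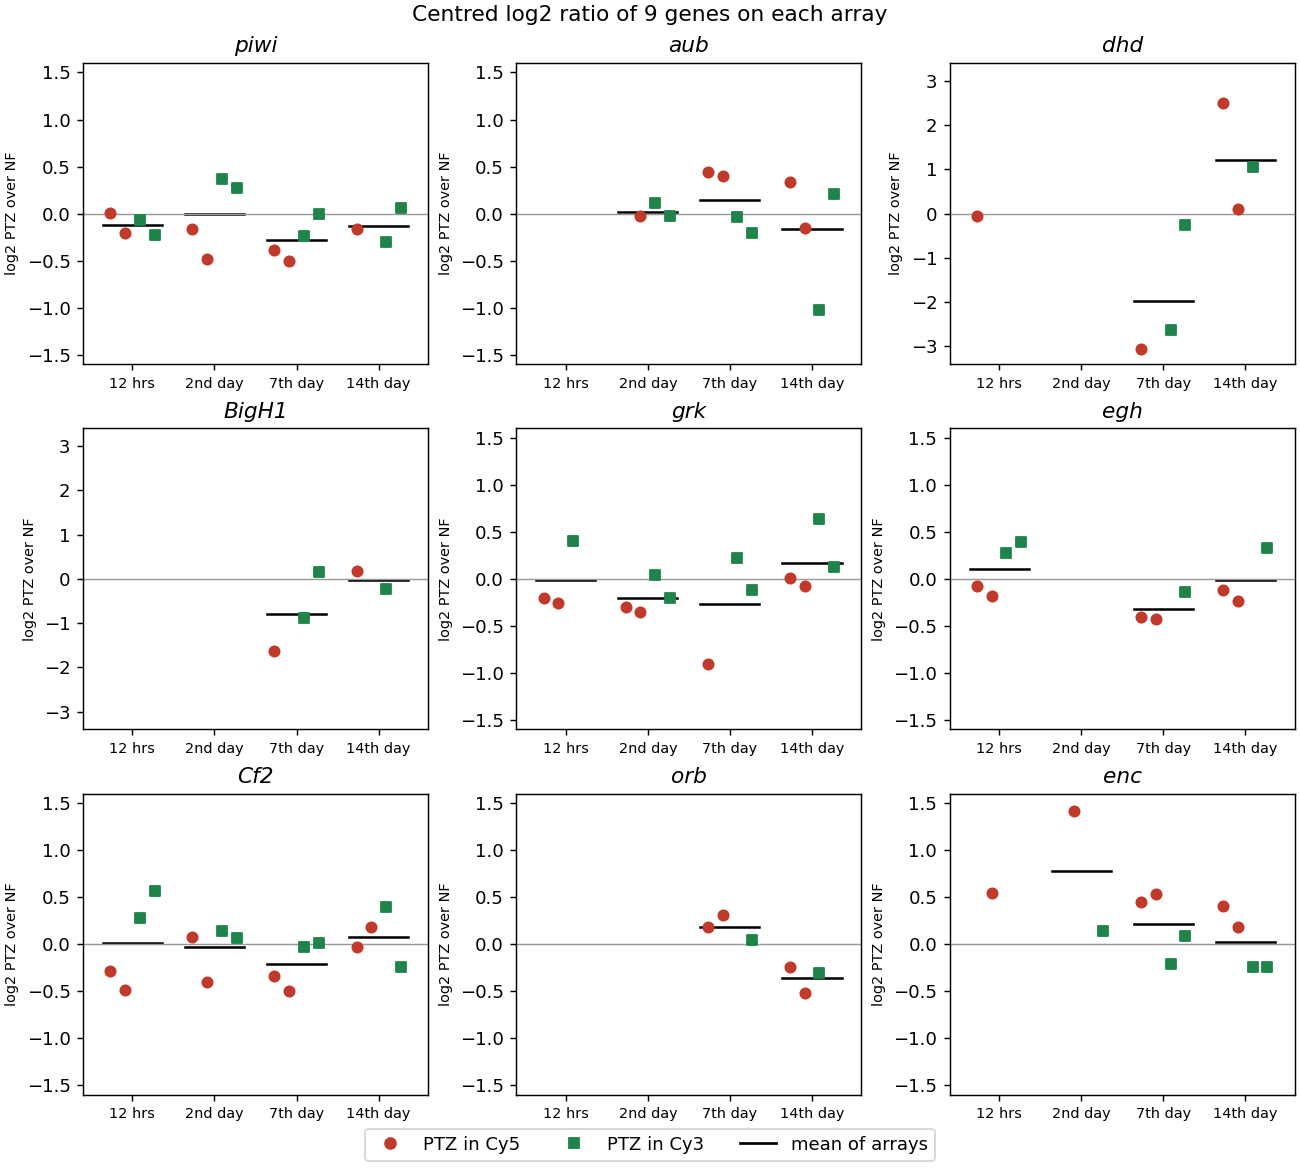
Log2 ratio of PTZ over NF (vertical axes, each array centred on its median) on each array of the 4 time points, with replicates 1 to 4 from left to right within a time point, circles for PTZ in Cy5, squares for PTZ in Cy3 and a black bar for the mean of 2 or more arrays. The axes of dhd and BigH1 run wider than the others, and dhd lies at -3.06 and -2.62 on 2 arrays of the 7th day and at 2.49 and 1.05 on 2 of the 14th.

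Counted over the members, the time points differed as follows. At 12 hrs 0 of the 4 tested genes passed limma's test at an adjusted p under 0.19 against 0% of the 5760 features, and 0 had an unadjusted p under 0.05 against 2.34%. None was on 1 side of 0 on every array (6.46% of all features were below 0 throughout and 6.58% above). Instead 3 of 4, namely grk, egh and Cf2, had 1 sign on the Cy5 arrays and the other on the Cy3 arrays, as had 46.2% of all features.

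On the 2nd day 0 of 4 passed, against 0.222% of the 5415 features, and 0 had an unadjusted p under 0.05 against 4.82%. None had a single sign (7.31% below and 6.46% above over all features), and piwi followed the dye, as did 31.4% of all features.

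On the 7th day 0 of 9 passed, against 0% of the 7289 features. An unadjusted p under 0.05 was reached by 2 members, dhd and BigH1, against 8.4% of all features. Below 0 on every array were 3 members, dhd, piwi and egh, against 10.7%, and above 0 on every array was orb, against 10.5%. With the values as deposited piwi, egh and orb each had arrays on both sides of 0. Only aub followed the dye, against 19.9%. The 9 means had a median of -0.27, against 0.004 over all features, and 6 of 9 were below 0.

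On the 14th day 0 of 8 passed, against 0% of the 6464 features, and dhd alone had an unadjusted p under 0.05, against 2.18%. Below 0 on every array was orb (7.32% of all features) and above 0 on every array was dhd (5.49%). The sign of enc and egh followed the dye, against 21.3%. The median of the 8 means was 0.006, with 4 below 0 and 4 above. A one-class statistic in the manner of SAM over all 16 sign changes also called 0 members at each of the 4 time points, against 0.0174%, 0.0554%, 0.0137% and 0% of all features in time order.

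The largest difference of a member between time points was in the contrast of the 14th day with the 7th. This was also the only contrast in which dhd, orb and enc had enough arrays for the test. For dhd the difference was 3.19 log2 units (SE 0.79, 95% interval from 1.4 to 4.99, limma adjusted p = 0.648), the largest in size of the 5881 features tested, and the lowest 14th day array lay above the highest 7th day array. For orb the difference ran the other way, -0.54 (SE 0.20, 95% interval from -1.0 to -0.08, limma adjusted p = 0.648), also without overlap. In this comparison 2 of 8 members did not overlap, against 6.02% of all features, and the same 2 of 8 had an unadjusted p under 0.05, against 7.65%. At an adjusted p under 0.19 0 of 8 passed, against 0%. The array whose labels disagree bears on both: without it the differences were 4.06 for dhd and -0.61 for orb (limma adjusted p = 0.464 for each). With the values as deposited, whose medians differed between these arrays, the difference of dhd was 4.32 and passed (limma adjusted p = 0.1), as did 0.017% of all features. The difference of orb was then -0.15 (limma adjusted p = 1.0), and its arrays of the 7th and 14th day overlapped.

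The other 6 members had intervals that held 0 in this contrast. The differences were 0.44 for grk, 0.31 for egh, 0.29 for Cf2 and 0.15 for piwi, and below 0 were aub at -0.31 and enc at -0.19. Their 95% intervals ran from -0.97 (aub) to 1.10 (grk), so differences beyond these bounds lay outside every one of the 6 intervals. BigH1 could not be tested, having 2 arrays on the 14th day.

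**Figure D3:**
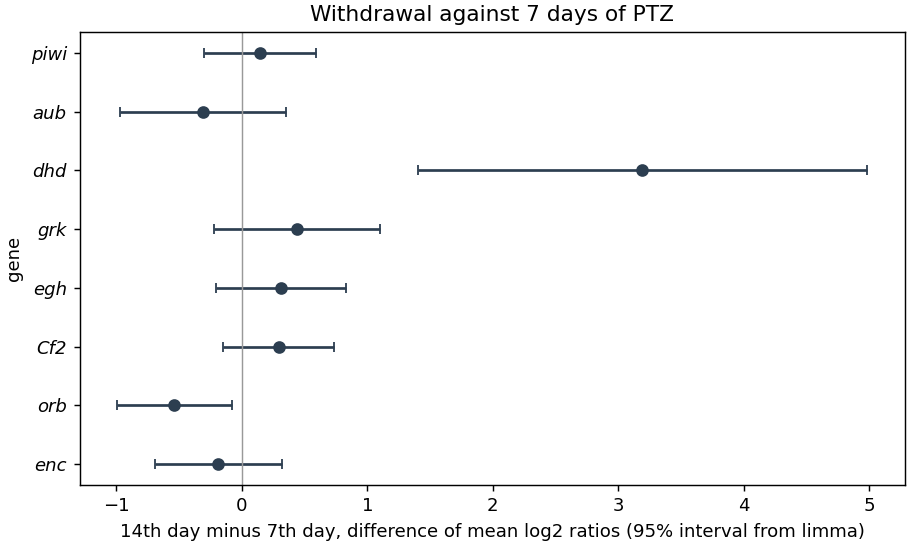
Difference between the 14th day and the 7th day of the mean log2 ratio (horizontal axis) for the 8 genes tested (vertical axis), with points for the estimate and bars for the 95% interval from limma. The bars of dhd (1.4 to 4.99) and orb (-1.0 to -0.08) do not cross 0, and the other 6 do.

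The other contrasts could be tested for 3 or 4 members each, and none passed. Between the 2nd day and 12 hrs 0 of 3 were called, against 0.0225% of all features. Between the 7th day and 12 hrs 0 of 4 were called, against 0.135%, with egh the nearest at -0.42 (95% interval from -0.86 to 0.01, limma adjusted p = 0.761). That difference of egh was 0.01 with the values as deposited. Between the 14th day and 12 hrs the counts were 0 of 4 against 0%, between the 7th day and the 2nd day 0 of 4 against 0.0238%, and between the 14th day and the 2nd day 0 of 4 against 0.0525%. In the last of these grk had the smallest p, with a difference of 0.38 (95% interval from -0.04 to 0.79, limma adjusted p = 1.0). A single test of any difference among the 4 time points was possible for Cf2, grk and piwi, which had adjusted p = 0.99 each from limma, and called 0 of these 3 against 0.158% of the features.

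The members also differed in how far their values went with the dye. Over all time points grk, egh, Cf2 and piwi had a lower mean with PTZ in Cy5 than in Cy3. The means were -0.24 (SD 0.15, n = 6) and 0.21 (SD 0.24, n = 4) for egh, -0.22 (SD 0.26, n = 8) and 0.15 (SD 0.26, n = 8) for Cf2, and -0.27 (SD 0.19, n = 7) and -0.02 (SD 0.24, n = 8) for piwi. For enc and aub the order was the reverse, at 0.59 (SD 0.43, n = 6) and -0.10 (SD 0.19, n = 5) for enc and 0.20 (SD 0.27, n = 5) and -0.16 (SD 0.45, n = 6) for aub. The Cy3 mean of piwi includes its first pair of spots, which lowered it. In replicates 3 and 4 of 12 hrs that pair was at -0.268 and -1.002 and the second at 0.132 and 0.54. In replicate 3 of the 14th day they were at -0.958 and 0.355. In dhd, BigH1 and orb arrays of both dyes lay on both sides of 0, and in dhd the 2 lowest arrays and the 2 highest arrays each held 1 of either dye. These are descriptions of arrays that differ in time point as well as dye, and the part of the dye in each result was not tested beyond the fit with a dye term. In that fit 0 members passed at any time point, against 0%, 0.222%, 0.0274% and 0% of all features in time order.

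**Figure D4:**
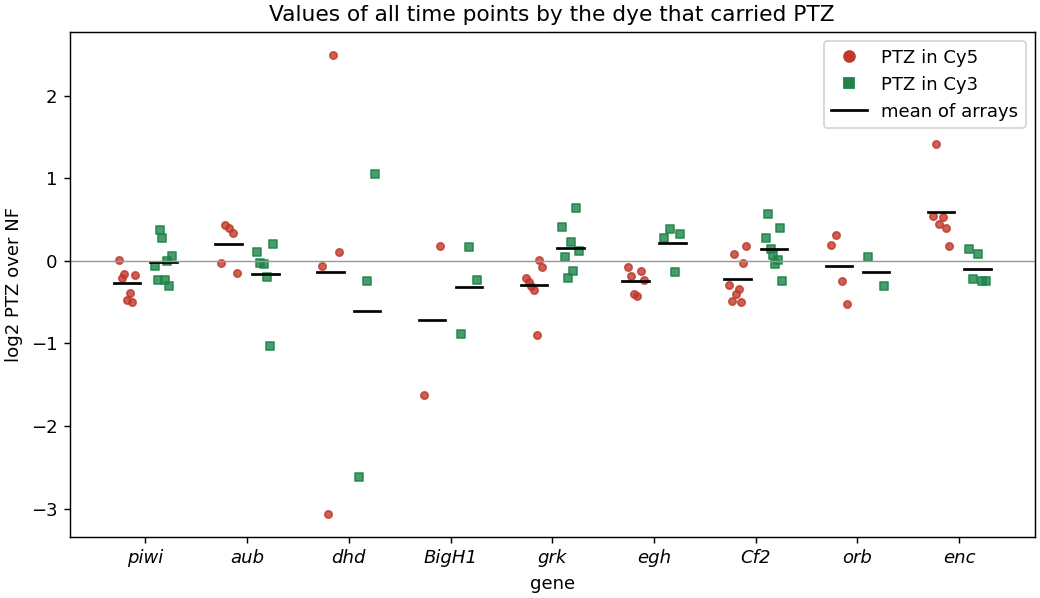
Log2 ratio of PTZ over NF (vertical axis) of each gene (horizontal axis) on all arrays with a value, with circles for the arrays with PTZ in Cy5, squares for those with PTZ in Cy3 and black bars for the means. The squares of grk, egh and Cf2 lie mostly above their circles and those of enc below, while for dhd both dyes spread over both sides of 0.

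The pathways around the 9 genes were followed through 5 lists of other genes. Of the piRNA pathway 21 other genes were named on the array and 13 were tested on the 7th day, of which 10 were below 0 and 3 above with a median of -0.08, against 0.004 over all features. None of these genes, nor any other gene of the 5 lists, passed limma's test at any time point. Within the piRNA list 1 gene had an unadjusted p under 0.05 at any time point, mino on the 2nd day. It encodes an enzyme of phospholipid synthesis at mitochondria that takes part in making piRNAs, and was at 0.11, 0.29, 0.23 and 0.28 (mean 0.23, SD 0.08, limma adjusted p = 0.717). The list had a median of -0.06 over 6 genes at 12 hrs, of 0.04 over 9 genes for the 2nd day and of 0.01 over 11 genes after withdrawal. Of the 7th day genes, nxf2, which acts with Panx in transcriptional silencing guided by Piwi, was at -0.31 (SD 0.63, limma adjusted p = 0.688).

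Of dorsoventral axis formation 16 other genes were named and 12 tested on the 7th day, 8 below 0 and 4 above, with a median of -0.07. The smallest p belonged to tsl, a follicle cell gene of the terminal system, which was below 0 on 3 of 3 arrays (mean -0.21, SD 0.05, limma adjusted p = 0.658). The Toll receptor gene Tl was at -0.21 (SD 0.30), ea, a protease above it, at 0.19 (SD 0.07), and cni, which helps Gurken leave the endoplasmic reticulum, at -0.15 (SD 0.10). Below 0 were 4 of 8 at 12 hrs, 4 of 6 by the 2nd day and 4 of 9 after withdrawal. None of the list had an unadjusted p under 0.05 at any time point.

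Among the partners of orb and enc in the oocyte 9 genes were tested on the 7th day and 8 of them were below 0, with a median of -0.11. The lowest was gus, which encodes a partner of the helicase Vasa, at -1.21, -0.33, -0.22 and -0.13 (mean -0.47, SD 0.50, limma adjusted p = 0.589). After withdrawal all 4 arrays of gus were above 0 (mean 0.31, SD 0.30, limma adjusted p = 1.0). The poly(A) binding protein gene pAbp averaged -0.45 on the 7th day (SD 0.60), with arrays on both sides of 0.

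The linker and variant histone list held 3 other genes, of which 2 were tested on the 7th day. His2Av, the fly's H2A.Z variant, was at -1.32, -0.38, -0.92 and -0.17 (mean -0.70, SD 0.52, limma adjusted p = 0.589). Nap1, a histone chaperone, was at -0.56, -0.28, -0.62 and -0.27 (mean -0.43, SD 0.19, limma adjusted p = 0.589). Both had an unadjusted p under 0.05 and were below 0 on 4 of 4 arrays, with replicates 1 and 3 the lowest, the arrays on which dhd and BigH1 were lowest as well. After withdrawal His2Av was above 0 on 4 of 4 arrays (mean 0.17, SD 0.04) and Nap1 was at -0.03 (SD 0.37).

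In the thioredoxin list 7 genes were tested on the 7th day, with a median of -0.15 and 5 below 0. Trx2, which encodes a thioredoxin made in many tissues, was below 0 on 4 of 4 arrays (mean -0.34, SD 0.15, limma adjusted p = 0.589). The testis thioredoxin gene TrxT, the nearest neighbour of dhd in the annotation, had no value on the 7th day. At 12 hrs TrxT was at 0.44 and 0.52 with PTZ in Cy5 and at -0.54 and -0.40 with PTZ in Cy3, and on the 14th day it was at 0.15 and -1.0 in replicates 1 and 3, where dhd was at 2.49 and 1.05.

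**Figure D5:**
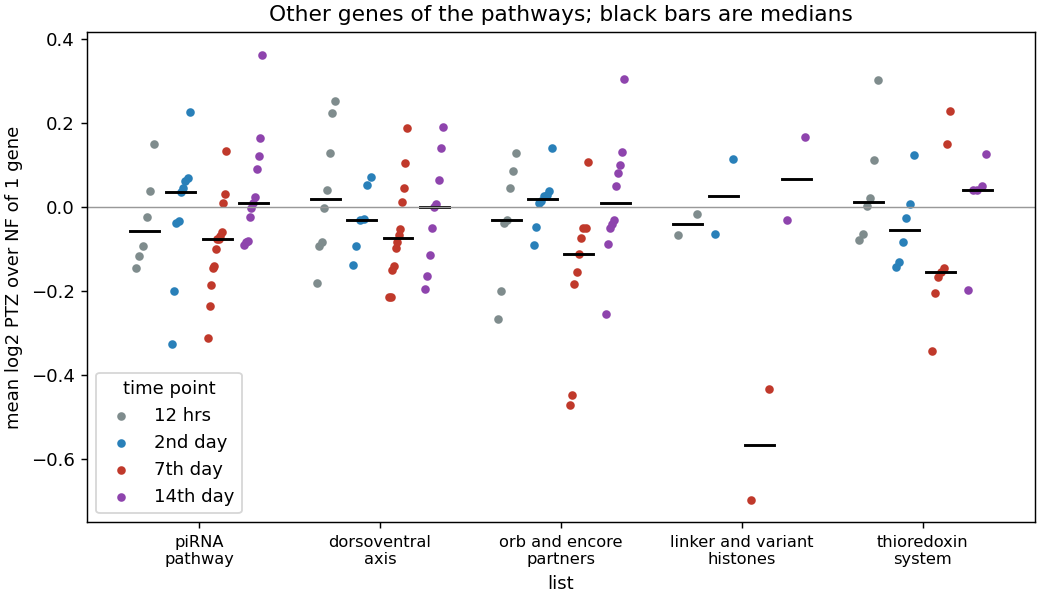
Mean log2 ratio of PTZ over NF (vertical axis) of each other gene of the 5 lists (horizontal axis), in time order from 12 hrs to the 14th day within a list, with black bars for the medians. The 7th day medians are all below 0, from -0.57 for the 2 histone list genes to -0.07 for dorsoventral axis formation.

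Markers of other cells were read beside these results. The other germline and ovary markers tested on the 7th day numbered 4, with 2 below 0 and 2 above and a median of -0.09, and by array their median, over 3 to 8 genes with a value, was -0.28, 0.38, -0.12 and -0.02. Of the 4, png was at -0.378 (SD 0.468, n = 3) and stau at -0.182 (SD 0.129, below 0 on 4 of 4 arrays). The means above 0 were those of swa at 0.096 (SD 0.342, n = 3) and mael at 0.0111 (SD 0.303). In replicates 1, 3 and 4 png was at -0.875, -0.315 and 0.0555. The sign was thus not shared among all these markers. CycB, a maternal cyclin that any dividing cell also uses, was at -0.61 and -0.41 in replicates 1 and 4 of the 7th day and at 0.70 and 0.67 in replicates 1 and 3 of the 14th day. On the same arrays plu, which acts in the first divisions of the embryo, was at 0.86 and -0.39 and then at 0.43 and -0.70. For exu, which acts in the localisation of maternal RNA, they gave -0.28 and -0.39 and then 0.16 and -0.31, and for swa -0.27 and 0.14 and then 0.02 and 0.19. The list for the fat body, a tissue of the head that makes yolk protein, had 7th day medians by array of -0.19, -0.17, 0.13 and -0.22. On the 2nd day its 7 tested genes had a median of -0.54, with 4 below 0 and 3 above. Of them 2 passed, against 0.222% of all features. One was fit, at -1.13, -1.46, -1.13 and -1.28 (mean -1.25, SD 0.16, limma adjusted p = 0.0347). The other was AkhR, through which adipokinetic hormone mobilises stored fat, at -0.58, -0.63, -0.45 and -0.49 (mean -0.54, SD 0.08, limma adjusted p = 0.145). Going the other way, bmm was above 0 on 4 of 4 arrays (mean 0.603, SD 0.225, limma adjusted p = 0.372). On the 14th day fit (mean 0.41, SD 0.37) and the yolk protein gene Yp3 (mean 0.44, SD 0.08, n = 3) were above 0 on every array that measured them. Both had an unadjusted p under 0.05 (limma adjusted p = 1.0 for each). The list was split there, with 3 of its 6 tested genes above 0 and 3 below. Those below were Fbp2 (mean -0.373, SD 0.384), Yp2, also a yolk protein gene (mean -0.23, SD 0.591, n = 3), and Obp99b (mean -0.107, SD 0.455). At all other time points 0 fat body genes passed, and of the lists for the germline, testis, eye, neurons, glia and muscle 0 markers passed at any of the 4 time points. The part of either cell type in the values of dhd and BigH1 was not tested.

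For the members measured on at least 12 arrays, the named genes with the most similar values were listed over the arrays they shared, as a description only, since these arrays also fall into 2 dye groups. For Cf2 they were CG12818 (Pearson's r = 0.92, 13 arrays) and Taf3 (0.92, 16 arrays), out of 2117 genes. For grk they were CG3842 (0.91, 12 arrays) and Pi4KIIalpha (0.90, 12 arrays), and for piwi Cmtr1 (0.79, 13 arrays) and CG17361 (0.79, 12 arrays).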

How the data were processed

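RNA of pooled heads was measured on 16 two-colour arrays. The authors quantified the scans in GenePix Pro, normalized the ratios in Acuity and removed weak, saturated, flagged or uneven spots; the deposited values are log2 ratios of Cy5 over Cy3, and the sources used here do not say how they were centred. The 53 values at the table's ceiling of 16.61 were set missing. The platform annotation gave the genes of the spots, and the Release 6 gene table their current symbols, and the spots of 1 gene were averaged on each array. Arrays with PTZ in Cy3 were multiplied by -1 after each array was centred on its median.

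The means of single time points were compared with 0 by limma 3.58.1 in R 4.3.3, over all features with at least 3 arrays, with Benjamini-Hochberg adjustment. Differences were fitted on the 8 arrays of both time points. Calls used an adjusted p under 0.19, after the false discovery rates of the study. The functions were tested on simulated data. Alternatives covered centring, dye, eBayes settings, sign changes, the number of arrays, single spots, a shared fit, the replicate number as a block and leaving out arrays. The number of arrays limits the precision. The labels call the replicates separate sets of vials.

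The members, lists and tests were chosen with earlier results of these data known. In each list the genes named were those that passed the test and up to 4 with the smallest p, and for a member with at least 12 arrays the 2 most similar genes. CycB, plu, exu, swa, Yp2, Obp99b, TrxT and the lists of other markers were read after their values were seen.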

Additional observations from a re-analysis of the deposited data

Results flagged for a closer look

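For dhd every 7th day array was below 0 and every 14th day array above it, 3 against 3, and the means differed by 3.19 log2 units (limma adjusted p = 0.648). For orb every 7th day array was above 0 and every 14th day array below it, with a difference of -0.54 (limma adjusted p = 0.648), which was -0.15 with overlapping arrays when the values were taken as deposited. Neither difference passed, and both rest on 3 arrays a side, 1 of which has labels that disagree.

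For Cf2 on the 2nd day replicate 2, at -0.40, stood apart from the other 3 arrays by a gap of 0.863 of the group's range, above Dixon's 95% critical value for 4 values. Of the 14 combinations of member and time point with 4 values this was the 1 that did so, and chance alone gives about 1 in 20.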

How the results depend on the processing

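Of 837 alternative values of 55 results for single genes, 785 kept their sign and their side of the threshold. Some of these could not do otherwise. For the test of any difference among the 4 time points, with 66 of the values, the statistic has no sign to turn. The alternative with a stricter threshold of 0.05 reused the main values, none of which had passed. A sign turned in 51 of the 837, and 1 passed that had not. That was the difference of dhd between the 14th and 7th day, 4.32 as deposited (limma adjusted p = 0.1, range over its alternatives 0.1 to 1.0). Values as deposited keep the array medians, which differed between the arrays of these days and move all features of an array alike. The number of members passing stayed at 0 in every setting run, except that with the values as deposited 1 passed between 2 time points. With the replicate block in the fit of all 16 arrays that difference of dhd was 4.61 (adjusted p = 0.33) and 0 members passed; in the fit of 8 arrays, added after the data were seen, it was 4.61 (adjusted p = 0.534). The labels tie no array of 1 time point to one of another. Same-numbered arrays deviated together by over 0.1 in 6 of 24 pairs (r from -0.20 to 0.35). Arrays of the same dye but another number had r from -0.05 to 0.45. These values cannot show whether same-numbered arrays share an origin.

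With the values as deposited the mean of egh became 0.126 on the 7th day and 0.314 on the 14th day, that of aub 0.0856 and that of orb 0.478 on the 14th day, and the differences became 0.014 for egh (7th day minus 12 hrs), 0.203 for egh (14th day minus 12 hrs) and 0.0595 for aub (14th minus 2nd day). Centred on the mean ratio piwi was at 0.00831 on the 2nd day. With a dye term grk was at 0.0892 at 12 hrs and egh at 0.072 on the 14th day. With single spots piwi was at 0.0535 at 12 hrs and 0.0279 on the 2nd day, grk at 0.00967 at 12 hrs, enc at -0.0357 and Cf2 at -0.0147 on the 14th day, and differences from 12 hrs were -0.0256 for piwi on the 2nd day and -0.03 for Cf2 on the 14th. With the replicate block aub differed by -0.00385 between the 7th and 2nd day. The changes with the values as deposited come from the array medians that centring takes away. Each median moves all features of its array alike. The cause of the other changes was not tested.

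Leaving out 1 replicate at a time gave these ranges where a sign turned. At 12 hrs grk ran from -0.227 to 0.101 and Cf2 from -0.165 to 0.183. On the 2nd day piwi ran from -0.123 to 0.16, Cf2 from -0.0835 to 0.0962 and aub from -0.0237 to 0.0438. On the 7th day grk ran from -0.512 to 0.0517, the latter without replicate 1. On the 14th day enc ran from -0.102 to 0.113, egh from -0.179 to 0.101, aub from -0.327 to 0.128 and Cf2 from -0.0292 to 0.184. Differences from 12 hrs ran from -0.305 to 0.0236 for grk and -0.21 to 0.138 for Cf2 on the 2nd day, from -0.495 to 0.0681 for grk on the 7th day, and from -0.11 to 0.0711 for piwi, -0.105 to 0.243 for Cf2 and -0.279 to 0.00112 for egh on the 14th. From the 2nd day they ran from -0.308 to 0.256 for grk on the 7th day and, on the 14th, from -0.0183 to 0.211 for Cf2 and -0.347 to 0.108 for aub.

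Tested members had 3 or 4 arrays at a time point, at most 2 of each dye. Signal over background was not among the values used, so weak spots could not be weighed.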

Other observations

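Among the 5725 features with a value in both replicates 1 and 3 of the 7th day, 4 were below -1 in each: dhd, Hsp26, drpr and an unnamed pair of spots. The genes were singled out after their values were seen. Hsp26, a small heat shock protein gene that is also active in the ovary, was at -2.11 and -1.53 in those replicates and at 0.26 and -0.02 in replicates 2 and 4. The engulfment receptor gene drpr was at -1.84 and -2.08, and at 0.71 and -0.42. On the 14th day Hsp26 was at 0.68, 0.11, 0.73 and 0.24, drpr at 0.91, 0.01, 0.39 and 0.08, and dhd at 2.49, 0.11 and 1.05. The unnamed pair was at -1.14, -1.34 and -1.57 in replicates 1, 2 and 3 of the 7th day, and at 0.02, -0.81 and -0.28 in replicates 1, 2 and 4 of the 14th, so it was low in replicate 2 of the 7th day as well and mostly below 0 on the 14th. These values were not tested against each other.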
